A study of Homo sapiens with 4 samples.

Results

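RING1, RNF2 and 8 genes of the variant Polycomb repressive complex 1 (PRC1) were followed through the H2AK119ub peak lists of H1 human embryonic stem cells. The 10 genes were taken by name out of 19839 protein-coding genes on chromosomes 1 to 22 and X. No measured value entered the rule, but earlier results of these data were known when it was set. They are the catalytic genes RING1 and RNF2, the PCGF genes PCGF1, PCGF3, PCGF5 and PCGF6, the RING1-binding genes RYBP and YAF2, and KDM2B and BCOR, partners of PCGF1. For each gene, all peaks with at least 1 bp in the RefSeq gene span or the 20 kb on either side were taken, and this stretch is called the window. The 10 windows do not overlap and measure 1158 kb together.

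The study set an H2AK119ub profile of H1 cells, an established embryonic stem cell line, beside that of H1 cells given an shRNA to YTHDF1 (a short hairpin RNA that lowers its transcript), a cytoplasmic protein that binds methylated adenosine in messenger RNA. The series title concerns YTHDF1 and the H2A ubiquitination made by PRC1. The cells of both groups were grown in mTeSR1 medium; the wild-type cells are labelled untreated, and no control hairpin, number of hairpins or clone is named. Each group had 1 H2AK119ub library, so no difference below has a replicate spread or a test, and every value describes 2 libraries, which are not said to come from more than 1 culture each. The lists hold no reads and no RNA, so depth is unknown, and neither the cell type nor the loss of YTHDF1 could be checked from them. Their 32791 wild-type and 34390 knockdown peaks covered 195.1 and 168.3 Mb.

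PRC1 attaches a single ubiquitin to histone H2A through RING1 or RNF2, the alternative E3 ligase subunits. Each holds a PCGF protein, and the PCGF protein decides which other subunits join. Variant PRC1 carries RYBP or YAF2 in place of a chromobox protein, and in embryonic stem cells variant complexes make most of the mark. KDM2B brings the PCGF1 complex to unmethylated CG-rich promoters through its CXXC zinc finger. RING1 and RNF2 thus encode the enzyme that writes the mark, and the other genes encode its accessory subunits.

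All 10 genes carried the mark at or next to a promoter in both lists. An annotated start of 9 genes lay inside a wild-type peak and of all 10 inside a knockdown peak; over 15812 protein-coding genes with a start in the RefSeq promoter table the shares were 64.1% and 64.6%. PCGF6 was the gene that differed, since its start lay 140 bp outside the wild-type peak, which is less than the 200 bp grid on which the peaks were placed. Among all these genes, 6.22% had a start in a wild-type peak alone and 6.81% in a knockdown peak alone. With a peak allowed within 2 kb of the start, all 10 genes counted in both lists. The share of all protein-coding genes under this wider rule is not given here, so that count has no background.

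The promoters are shown because the peaks described below sit on or next to them, and because they run from CG-rich (RING1, RNF2) to CG-poor (the distal BCOR start). Each line gives the 250 bases before an annotated start from RefSeq (GRCh38.p14, which has the coordinates of hg38), 5′ to 3′ on the strand of the gene, with each CG in capitals. RING1 is at chr6:33208250-33208499 (plus strand), RNF2 at chr1:185045308-185045557 (plus), PCGF6 at chr10:103351141-103351390 (minus) and RYBP at chr3:72446624-72446873 (minus). For BCOR, the distal promoter is at chrX:40177278-40177527 and the inner one at chrX:40146634-40146883 (both minus).
RING1: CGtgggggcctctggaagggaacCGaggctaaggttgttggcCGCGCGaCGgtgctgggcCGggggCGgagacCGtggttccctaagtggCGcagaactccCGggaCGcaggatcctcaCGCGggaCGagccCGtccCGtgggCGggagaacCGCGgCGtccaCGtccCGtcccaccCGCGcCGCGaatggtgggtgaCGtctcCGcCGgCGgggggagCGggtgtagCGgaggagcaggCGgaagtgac
RNF2: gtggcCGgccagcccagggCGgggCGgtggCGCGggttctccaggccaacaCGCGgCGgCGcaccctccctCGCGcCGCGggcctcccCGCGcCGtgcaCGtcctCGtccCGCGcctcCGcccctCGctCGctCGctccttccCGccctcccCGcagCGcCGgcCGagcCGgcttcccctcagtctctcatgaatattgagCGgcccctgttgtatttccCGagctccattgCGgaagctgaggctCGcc
PCGF6: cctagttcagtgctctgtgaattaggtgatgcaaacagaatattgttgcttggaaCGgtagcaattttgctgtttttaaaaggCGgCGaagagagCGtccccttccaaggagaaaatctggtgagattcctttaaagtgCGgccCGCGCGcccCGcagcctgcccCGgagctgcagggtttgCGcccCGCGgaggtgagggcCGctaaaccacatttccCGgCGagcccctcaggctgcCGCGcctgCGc
RYBP: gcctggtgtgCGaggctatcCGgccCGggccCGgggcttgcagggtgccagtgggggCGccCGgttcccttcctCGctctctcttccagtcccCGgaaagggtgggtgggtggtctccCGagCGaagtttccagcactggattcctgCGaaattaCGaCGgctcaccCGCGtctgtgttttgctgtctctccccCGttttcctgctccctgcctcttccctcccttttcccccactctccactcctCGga
BCOR distal: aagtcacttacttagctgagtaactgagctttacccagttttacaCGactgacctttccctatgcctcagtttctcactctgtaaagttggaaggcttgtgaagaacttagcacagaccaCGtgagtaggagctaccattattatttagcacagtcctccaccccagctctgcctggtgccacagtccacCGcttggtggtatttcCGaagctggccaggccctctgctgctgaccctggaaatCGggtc
BCOR inner: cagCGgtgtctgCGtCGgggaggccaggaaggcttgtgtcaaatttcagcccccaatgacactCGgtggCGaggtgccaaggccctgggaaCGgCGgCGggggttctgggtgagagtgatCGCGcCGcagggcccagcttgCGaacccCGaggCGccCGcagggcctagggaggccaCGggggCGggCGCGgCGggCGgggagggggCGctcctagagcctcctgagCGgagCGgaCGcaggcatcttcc

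The table held 17 starts for the 10 genes, with a median of 29 CG dinucleotides per promoter against 16 over 22132 promoters of protein-coding genes. RING1 and RNF2 had 34 each, YAF2 37, PCGF3 35 and the outermost PCGF5 promoter 41, more than 97.8% of all promoters. RYBP had 17, PCGF6 19 and PCGF1 12. The distal BCOR promoter had 5 and the inner one 25, and both lay in peaks of both lists. Over all promoters, 91.8% of those with 30 or more CG lay in a wild-type peak and 91.9% in a knockdown peak. The shares were 80.8% and 82.3% with 20 to 29 CG and 67% and 69.4% with 10 to 19. They were 50.8% and 47.2% with 5 to 9 CG, the class of the distal BCOR promoter, and 19% and 17.6% with 0 to 4. The PCGF5 promoter with 2 CG lay in the same peaks as a neighbouring PCGF5 promoter with 29. The E-box CACGTG, which MGA and MAX bind, stood in the YAF2 promoter and the distal BCOR promoter (2 of 17, against 7.37% of all promoters). The E2F core GCGGGAA, searched on both strands, stood in the RNF2 promoter alone (1 of 17, against 6.97%). These matches are letters in a window and show no binding.

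**Figure D1:**
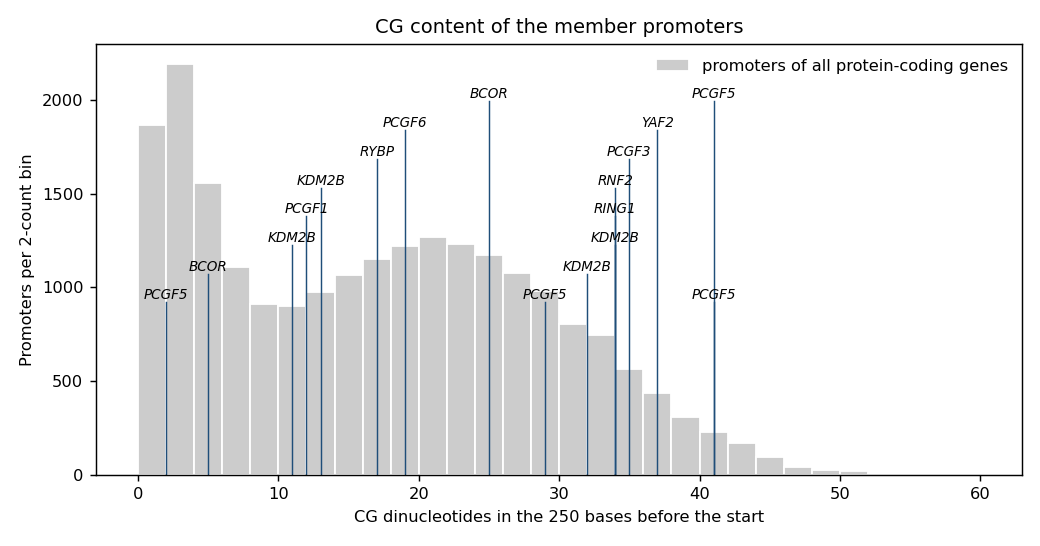
Number of CG dinucleotides in the 250 bases before each start (horizontal axis) against the number of promoters per bin (vertical axis), for all protein-coding promoters (grey bars) and the 17 promoters of the 10 genes (labelled lines, several per gene where the table gives several starts). The promoters of the 10 genes run from 2 to 41 CG.

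The next comparison asked how much of each window lay in peaks, here called the covered length. Summed over the 10 windows, 309.1 kb lay in wild-type peaks and 273.8 kb in knockdown peaks, a difference of -11.4%, which became 0.162% when the lowest-scored wild-type peaks were left out until both lists covered the same length. The merged windows of all protein-coding genes differed by -14.1%. Covered length was shorter in the knockdown list in 7 windows (PCGF1, PCGF3, PCGF5, RYBP, YAF2, KDM2B and BCOR) and longer in 3 (RING1, RNF2 and PCGF6). With lists of equal length PCGF5, RYBP and KDM2B joined the longer ones. That setting leaves out wild-type peaks only, so each difference can rise or stay but not fall. In KDM2B it dropped wild-type peaks at percentiles 11.6 and 11.4 by score, while a knockdown peak at percentile 5.13 stayed. A change of direction under it is therefore not read as a result about a gene. Of all protein-coding windows with a peak, 64% were shorter and 34.1% longer with the full lists, close to the split of the 10 genes. No window differed by 1.5 times and 1 kb in either direction. Among 16493 protein-coding windows with a peak, 24.5% were shorter and 13.4% longer by that rule, a balance that turned to 16.2% and 21.9% with lists of equal length. At a ratio of 5 to 4, PCGF3, PCGF5 and KDM2B were shorter (3 of 10, against 38% of all windows) and RNF2 longer (1 of 10, against 18.9%); of these, PCGF5 and KDM2B changed direction with lists of equal length. The median difference was -8.85% over the 10 windows and -13% over all protein-coding windows that had a wild-type peak, so the shares of the 10 genes gave no excess over the background.

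**Figure D2:**
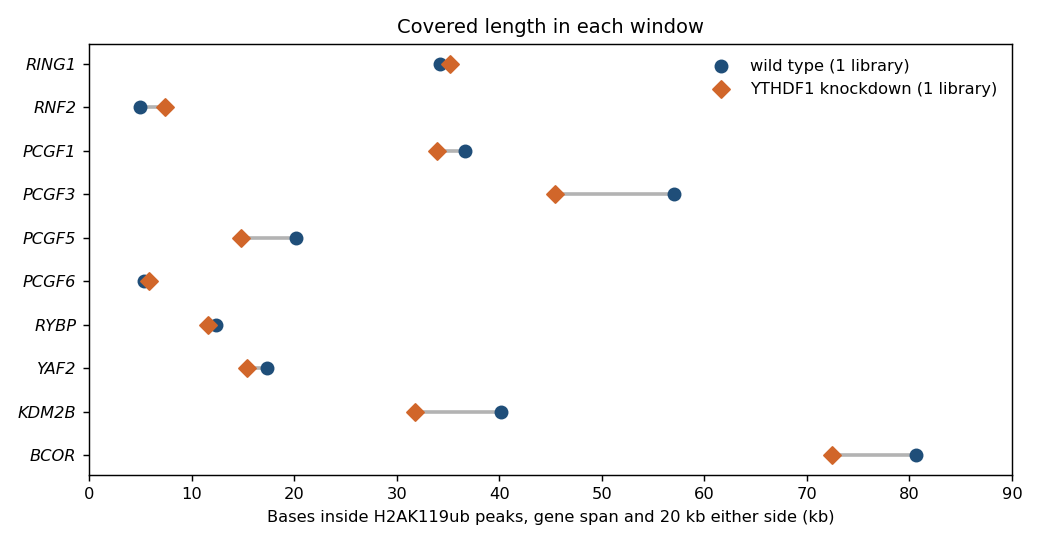
Covered length in kb (horizontal axis) of each gene's window in the wild-type list (circles) and the knockdown list (diamonds), 1 library each and therefore no error bars. The 2 values lie close together for RING1, PCGF6 and RYBP and farthest apart for PCGF3 (57.1 and 45.5 kb).

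**Figure D3:**
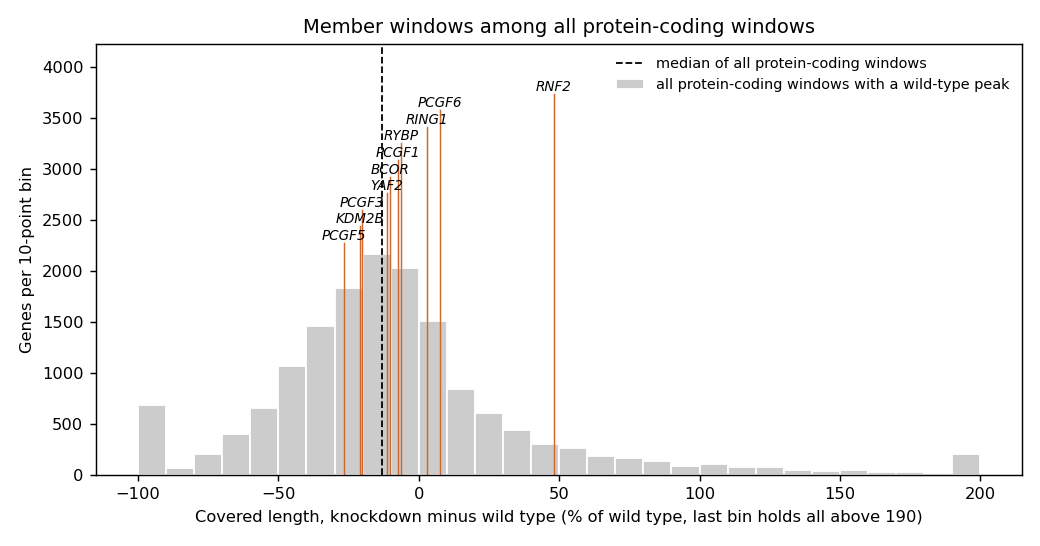
Difference in covered length in percent of the wild type (horizontal axis) for all protein-coding windows with a wild-type peak (grey bars, genes per bin on the vertical axis) and for the 10 genes (labelled lines); the dashed line is the median of all windows, -13%. The 10 genes run from -26.7% (PCGF5) to 48% (RNF2), beside quartiles of -34.1% and 7.69% over all windows, and PCGF5 is at 4.23% with lists of equal length.

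The lists were also compared base by base. Of the wild-type bases in the 10 windows, 77.9% also lay in a knockdown peak, and of the knockdown bases 87.9% also lay in a wild-type peak. Over the merged windows of all protein-coding genes the shares were 63.1% and 73.4%. No test was made of this difference. The pooled shares weigh wide domains most, and BCOR alone held 72.4 of the 240.8 kb in both lists. Per gene, the bases in both lists as a fraction of those in either varied widely. They were lowest for RYBP (0.379) and PCGF5 (0.389) and highest for PCGF1 (0.894) and BCOR (0.898). Peaks covered 26.7% and 23.6% of the 10 windows, against 10.3% and 8.86% of all protein-coding windows merged. Per window, the medians were 16.6% and 13.8% for the 10 genes and 14.6% and 12.9% for all protein-coding windows, so the pooled shares rest on a few densely covered windows. The density differed widely among the genes. PCGF1 (85.9% of its window in the wild type, 79.5% in the knockdown) and RING1 (77.3% and 79.6%) were almost filled, PCGF3 (54.7% and 43.6%) and BCOR (48.5% and 43.6%) came next, and RNF2 (5.15% and 7.63%) and PCGF6 (6.12% and 6.57%) were lowest.

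By position, the covered length inside the gene spans was 175.3 kb in wild-type cells and 144 kb after knockdown, a difference of -17.8%. Upstream flanks had 81.8 and 76.3 kb (-6.77%) and downstream flanks 51.98 and 53.42 kb (2.77%). The same sums are not given for all protein-coding genes, so they have no background here. The largest differences inside the span were those of PCGF3 (24.37 and 13.97 kb) and PCGF5 (20.2 and 9.8 kb). With lists of equal length the whole windows of PCGF3 and PCGF5 differed by -1.3% and 4.23%. Inside the span 6 genes were shorter, RNF2 and YAF2 were longer, and RING1 and PCGF1 were equal because a peak held the whole gene in both lists; this split was made with the full lists only. With the span alone, RYBP, PCGF3 and PCGF5 were shorter and RNF2 longer by 1.5 times (background 26.8% and 15.5%).

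Among the catalytic genes, RING1 stood in a wide domain and RNF2 had a narrow start peak. RING1 (chromosome 6, 33208500 to 33212716, plus strand) is 4.22 kb long and lay whole within a 20 kb wild-type peak (33201001 to 33221000) and a 29.6 kb knockdown peak (33190801 to 33220400), both at the score ceiling of 1000. The score is the authors' own value per peak, of unknown unit, and is read here only by its rank within a list. The knockdown peak overlapped 97% of the wild-type peak over RING1 and 83.9% of an 11.2 kb neighbour over RXRB and the COL11A2 start, across a wild-type gap of 0.8 kb. It also held the starts of COL11A2, RXRB, SLC39A7 and HSD17B8, so the mark there is not that of RING1 alone. The covered length of the RING1 window was 34.2 kb in wild-type cells and 35.2 kb after knockdown (2.92%), and in the upper 50% of peaks by score it was 31.2 and 29.6 kb (-5.13%).

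RNF2 (chromosome 1, 185045558 to 185102603, plus strand) is 57.05 kb long and had a narrow peak at its start, 5 kb wide in wild-type cells (185043601 to 185048600) and 4 kb after knockdown (185043601 to 185047600). The left edges were identical and the right edge lay 1 kb nearer the start in the knockdown. A further knockdown peak of 3.4 kb (185060401 to 185063800) lay inside the gene, with no wild-type peak touching it. With it, the window had 7.4 kb in the knockdown against 5 kb (48%, also with lists of equal length). Its score stood at percentile 26.5 of its list, and in the upper 50% by score the RNF2 window had 4 against 5 kb (-20%). The start peak was thus narrower in the list in which the window total was longer.

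Of the PCGF genes, PCGF1 lay inside a wide domain, while the peaks at the starts of PCGF3, PCGF5 and PCGF6 measured between 2.2 and 7.4 kb. PCGF1 (chromosome 2, 74505043 to 74507695, minus strand), the PCGF subunit of the KDM2B and BCOR complex, is 2.65 kb long and lay in a 40.6 kb wild-type peak (74491601 to 74532200) and a 29.6 kb knockdown peak (74491001 to 74520600). The wild-type peak also held LBX2 and TLX2, which are homeobox genes, and DQX1, AUP1 and HTRA2. In the knockdown it was replaced by that peak and another of 10.4 kb, separated by 2.8 kb that lay fully inside the wild-type peak. Over the window this gave 36.7 kb in wild-type cells and 33.9 kb after knockdown (-7.52%), and within 10 kb of the gene 22.7 kb in both, since peaks filled that stretch.

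PCGF3 (chromosome 4, 705832 to 770089, plus strand) had 10 peaks in each list and the largest difference in kb, 57.1 in the wild type against 45.5 in the knockdown (-20.3%). Its start peak was wider in the knockdown (7.2 against 5.8 kb), and the wide peaks beyond its ends, over MYL5 and SLC49A3 and over CPLX1, scored 1000 in both lists. The difference came mostly from low-scored peaks in the gene body. The wild-type peaks at 718401 to 722200, 726001 to 728200 and 732401 to 735600 met no knockdown peak, and a 6.2 kb peak near the 3′ end met 2 knockdown peaks of 1.8 and 1.4 kb. These 4 wild-type peaks stood between percentiles 5.87 and 45.7 of their list by score. In the upper 50% by score PCGF3 had 31.7 kb after knockdown and 30.3 kb in wild-type cells (4.63%), and with lists of equal length the difference was -1.3%.

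PCGF5 (chromosome 10, 91156219 to 91284337, plus strand), which shares complexes of one kind with PCGF3, had the most negative percent difference of the 10 genes, 20.2 kb in the wild type against 14.8 kb in the knockdown (-26.7%), which turned to 4.23% with lists of equal length. Its peaks lay on 2 groups of starts and inside the gene. At the outer starts the peak measured 6.8 kb in wild-type cells (91160201 to 91167000) and 4.2 kb after knockdown (91161401 to 91165600). At the inner starts it measured 7.4 kb (91217601 to 91225000) and 4.6 kb (91219401 to 91224000). Both knockdown peaks lay inside the wild-type ones and were drawn in on both sides, by 1.2 and 1.4 kb at the outer starts and by 1.8 and 1 kb at the inner ones. Another peak, inside the gene, measured 6 kb in wild-type cells and 1 kb after knockdown, at percentiles 7.78 and 12.4 by score. The knockdown list alone had a 5 kb peak past the 3′ end. Among the higher-scored 50% of peaks PCGF5 stood at -38% (14.2 against 8.8 kb).

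PCGF6 (chromosome 10, 103302796 to 103351140, minus strand), the PCGF subunit of the complex with MGA, MAX and L3MBTL2, had the narrowest promoter peak of the 10 genes in both lists. It measured 2.2 kb in the wild type (103348801 to 103351000, percentile 37.3 by score) and 3 kb in the knockdown (103349001 to 103352000, percentile 64.5). The wild-type peak ended just inside the gene and the knockdown peak passed 0.86 kb upstream of the start. The other peaks of the window belonged to INA and TAF5. Its covered length was 5.41 kb in wild-type cells and 5.81 kb after knockdown (7.4%), a difference of 0.4 kb that equals 2 steps of the grid. The difference was -25.9% with peaks under 2 kb left out and -12% within 50 kb, but 36.4% within 10 kb. PCGF6 was longer by 1.5 times with lists of equal length (81.1%) and in the upper 50% by score (299%, from 1.005 and 4.005 kb). With lists of equal length the wild-type peak at TAF5 (percentile 13.3) was left out, while the knockdown peak there stayed. In the upper 50%, the 1.005 kb was the edge of the INA peak, since the PCGF6 wild-type peak fell below the cut.

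RYBP and YAF2 encode paralogs that bind RING1 or RNF2, and RYBP also binds the ubiquitinated histone. RYBP (chromosome 3, 72374597 to 72446623, minus strand) had a 9.4 kb start peak in the wild type (72443401 to 72452800) and a 6.8 kb one in the knockdown (72446201 to 72453000). The upstream edge moved by 0.2 kb, while the edge inside the gene moved by 2.8 kb, so the peak reached 3.22 kb into RYBP in wild-type cells and 0.422 kb after knockdown. Each list had a further low-scored peak without a counterpart, of 3 kb past the 3′ end in the wild type and of 4.8 kb upstream in the knockdown. With them the window totals were 12.4 and 11.6 kb (-6.45%, but 23.4% with lists of equal length). The difference was -36.9% within 10 kb and 17.9% within 50 kb. The start peak itself stood at percentiles 92.1 and 92.5 by score.

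YAF2 (chromosome 12, 42157104 to 42238248, minus strand) had start peaks of nearly equal width, 11.8 kb in wild-type cells (42233801 to 42245600) and 12 kb after knockdown (42232401 to 42244400). The knockdown peak was displaced into the gene by 1.4 kb at one edge and 1.2 kb at the other. Inside the span YAF2 therefore had 5.85 kb in the knockdown against 4.45 kb in the wild type (31.5%), opposite to RYBP. Its window as a whole had 15.4 against 17.4 kb (-11.5%). The peak at GXYLT1, the neighbouring gene, measured 3.4 kb after knockdown and 5.6 kb in wild-type cells, and with the spans of other protein-coding genes left out the difference was -1.36%.

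KDM2B (chromosome 12, 121408461 to 121582279, minus strand) is the longest of the genes, at 173.8 kb, and had 8 wild-type and 7 knockdown peaks. Its 5′ peak held 3 annotated starts and measured 10.8 kb in wild-type cells (121576401 to 121587200) and 7.6 kb after knockdown (121575601 to 121583200). The peak also held the start of KDM2B-DT, and its upstream edge lay 4 kb nearer the gene in the knockdown while the inner edge lay 0.8 kb farther in. The peak on the internal start was 5 kb wide in both lists (121464801 to 121469800 in the wild type), displaced by 0.2 kb. A peak of 7.2 and 7.8 kb inside the gene (121533601 to 121540800 in the wild type) held no start of the promoter table yet ranked at percentiles 92.5 and 92. Wild-type peaks of 3 and 3.4 kb, at percentiles 15.1 and 13.2, had no counterpart, and neither had a 2.2 kb knockdown peak at percentile 26. The window had 40.2 and 31.8 kb (-20.9%, but 19.5% with lists of equal length). In the upper 50% by score it had 26.6 and 27 kb (1.5%).

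BCOR (chromosome X, 40051246 to 40177277, minus strand), which encodes a corepressor that binds PCGF1, had wide domains inside the gene. A wild-type peak of 38.6 kb (40140001 to 40178600) reached from beyond the distal start past the inner start. In the knockdown the same stretch held 2 peaks, of 16.6 kb on the distal start and 20.2 kb on the inner start, with a gap of 0.8 kb. The edge beyond the inner start was identical in both lists, and the distal end lay 1 kb farther in. Another domain in the 3′ part of the gene measured 35.8 kb in wild-type cells (40077201 to 40113000) and 35.6 kb after knockdown (40077201 to 40112800). All 5 of these peaks scored 1000. Between the domains the wild-type list had a 6.2 kb peak (40115201 to 40121400, percentile 82.6) that met no knockdown peak, and the window had 80.6 and 72.4 kb (-10.2%). The BCOR difference ran from -10.2% to -9.08% over the 8 other settings, and BCOR alone among the 10 genes had the same direction in all of them. The settings by score, equal length, peak width, 10 kb and spans of other genes took away none of its covered bases. They returned the same 80.6 and 72.4 kb and so could not change its direction. Chromosome X as a whole had a ratio of knockdown to wild type of 0.772, against 0.898 in the BCOR window.

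**Figure D4:**
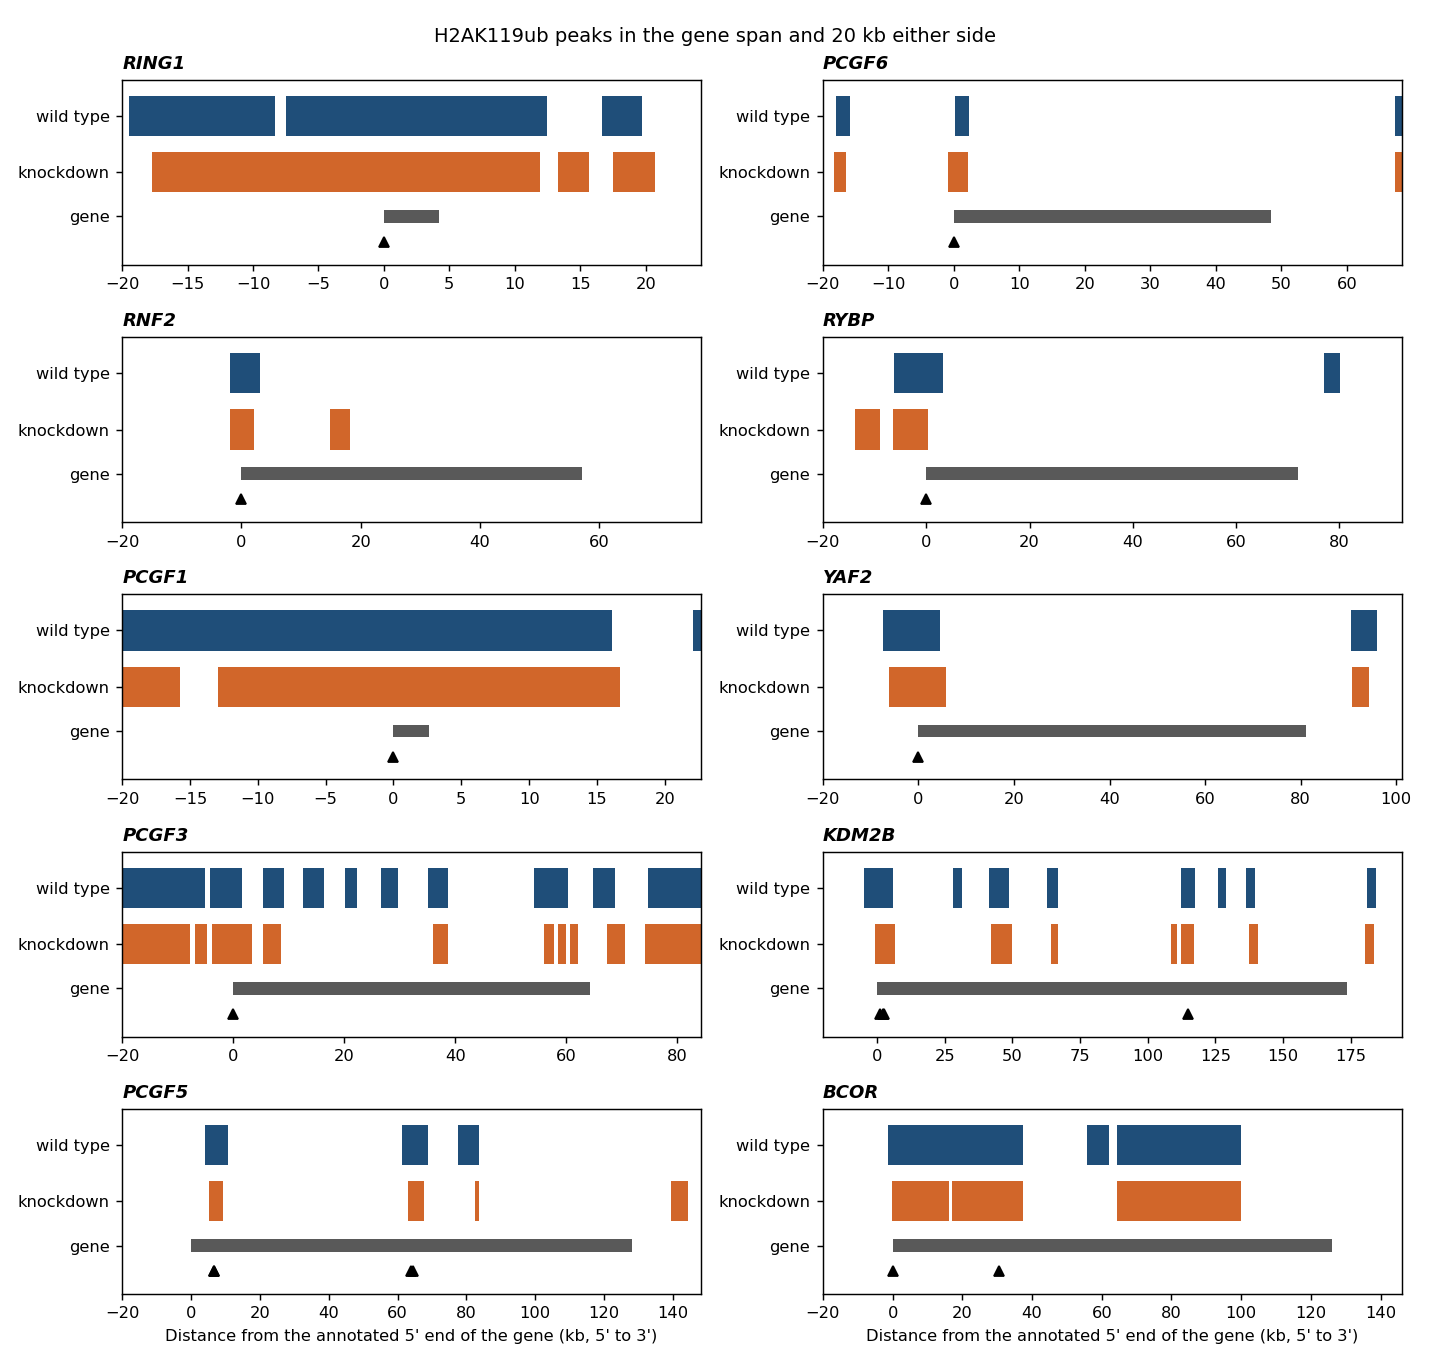
Peaks of the wild-type list (upper row) and the knockdown list (lower row) in each window, by distance in kb from the annotated 5′ end of the gene (horizontal axis, 5′ to 3′, scale differs between panels); the grey bar is the gene and triangles are its annotated starts. Peaks sit on every start except that of PCGF6 in the wild type, and inside PCGF3 there are 3 wild-type peaks that no knockdown peak meets.

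Edges around the starts summarise these loci. Of 17 starts, 16 lay in a peak of both lists. The upstream reach was shorter in the knockdown at 12 of them, longer at 3 and equal at 1, and the downstream reach was shorter at 9, longer at 6 and equal at 1. These are not independent, since the 4 PCGF5 starts share 2 peaks, 3 KDM2B starts share 1 peak and both BCOR starts share 1 wild-type peak. Reach also ends at the first gap, however short. A 0.8 kb knockdown gap in BCOR cut the downstream reach of the distal start from 37.3 to 16.3 kb. The same gap cut the upstream reach of the inner start from 32 to 13.6 kb. At PCGF1 a 2.8 kb knockdown gap cut the upstream reach from 24.5 to 12.9 kb. At RING1 a 0.8 kb wild-type gap acted the other way (7.5 and 17.7 kb upstream). Over 12230 protein-coding starts in peaks of both lists, the upstream reach was shorter at 56.3% and the downstream reach at 57.8%. Counted by peak, 9 pairs of peaks on a start in at least 1 list touched only each other: 5 were narrower in the knockdown (RNF2, both of PCGF5, RYBP and the 5′ peak of KDM2B), 3 wider (PCGF3, PCGF6 and YAF2) and 1 equal (internal KDM2B). Their median ratio of widths was 0.8, against 0.909 over 6911 such pairs at protein-coding starts, of which 58.6% were narrower and 37% wider.

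**Figure D5:**
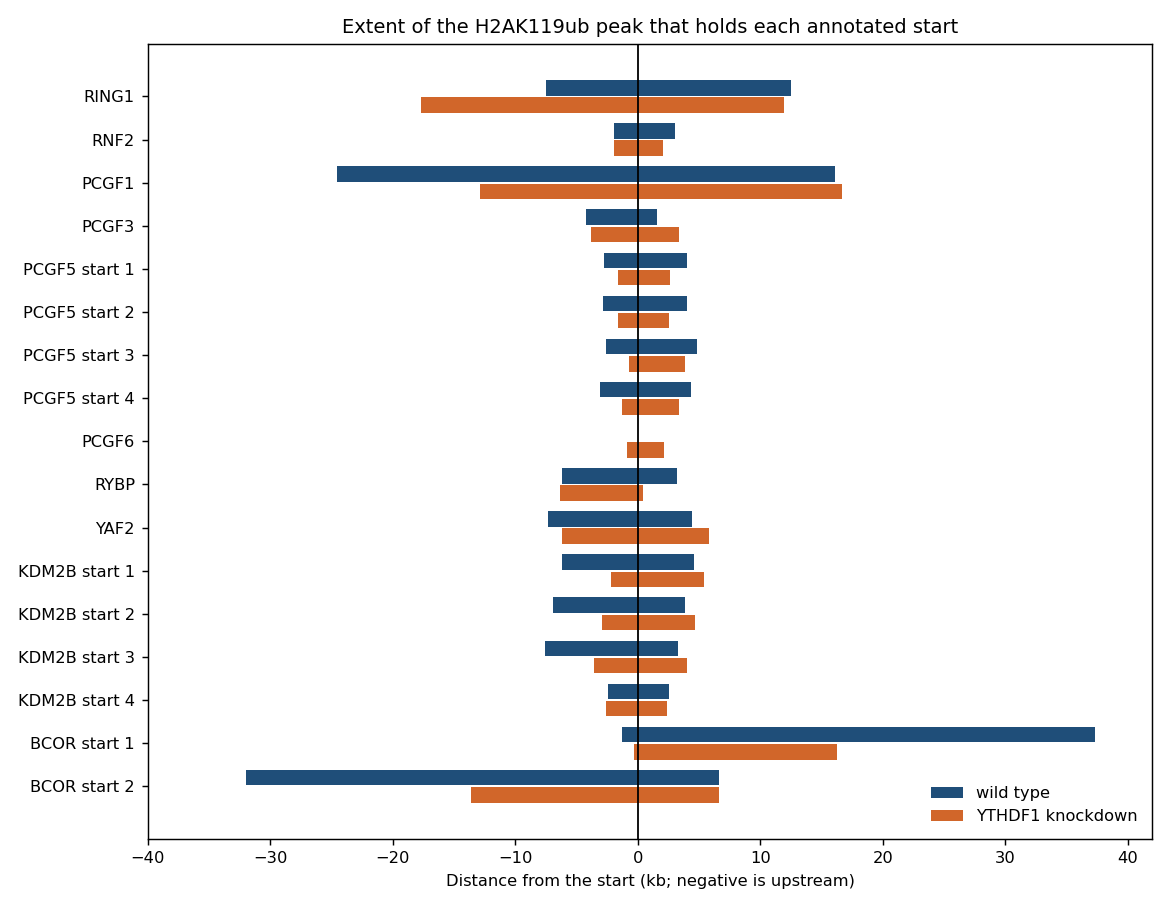
Reach in kb (horizontal axis, negative upstream) of the peak that holds each of the 17 annotated starts (rows, numbered 5′ to 3′ where a gene has several), wild type above and knockdown below. RYBP reaches 3.22 kb into the gene in wild-type cells and 0.422 kb after knockdown, and PCGF6 has a bar in the knockdown only.

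In all, 37 wild-type and 38 knockdown peaks lay in the windows, of which 30 (81.1%) and 32 (84.2%) touched a peak of the other list, against 71.4% and 74.1% of all peaks of each list. All 11 wild-type and all 13 knockdown peaks on a start did so. Inside the genes but off their starts it was 9 of 15 and 9 of 12, and in the flanks 10 of 11 and 10 of 13. The median score percentile was 91.7 and 89.4 for the peaks on starts and 25.3 and 27.9 for those inside the genes off their starts. For the sharing and the score of peaks on starts, no value over all such peaks of each list is given here. They are therefore not read as particular to the 10 genes. Of the peaks in the windows, 56.8% and 60.5% held an annotated start of any gene, against 32.5% and 31.4% of all peaks of each list. Every window was laid around an annotated gene, so a higher share was built into the choice of windows. The shares of touching peaks over each list, 71.4% and 74.1%, are likewise not limited to gene windows. Neither share is given for peaks in all protein-coding windows, so neither is read as particular to the 10 genes.

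The other PRC1 genes are described by 2 lists. Of 11 canonical PRC1 genes, each with a peak in its window in at least 1 list, 8 were shorter in the knockdown and 3 longer, with a median difference of -8.06%, and 2 were shorter and 1 longer by 1.5 times. PHC1, a polyhomeotic subunit, had 6.8 kb in the knockdown against 23.8 kb in the wild type, and SCMH1 14.6 against 29.2 kb. PHC3 had 2 kb in the knockdown and no peak in the wild type, and the chromobox gene CBX7 had 48.1 against 41.9 kb. Of 20 genes of variant PRC1 partners, 12 were shorter and 8 longer, with a median of -4.1%, and 2 were shorter and 1 longer by 1.5 times. SKP1, which joins KDM2B in the PCGF1 complex, had 7.47 kb in the knockdown against 20.3 kb in the wild type, and AUTS2, a partner of PCGF3 and PCGF5, 66 against 84 kb. The casein kinase gene CSNK2A1 had 20.2 against 9.6 kb and L3MBTL2, of the PCGF6 complex, 31.7 against 26.6 kb. These genes were named for the 2 largest decreases and 2 largest increases in kb of each list. Of them, AUTS2, CBX7 and L3MBTL2 did not differ by 1.5 times. Besides SKP1, the variant partner shorter by that rule was HDAC2, with 2.8 kb in the knockdown against 6.2 kb in the wild type. Both shares shorter by 1.5 times (2 of 11 and 2 of 20) lay under the background of 24.5%, and both shares longer (1 of 11 and 1 of 20) under that of 13.4%. The medians of -8.06% and -4.1% stand beside -13% over all protein-coding windows with a wild-type peak. Peak scores and values with lists of equal length are not given here for these genes. Without a threshold, 64% of all protein-coding windows with a peak were shorter and 34.1% longer.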

How the data were processed

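Chromatin of 4 samples, 2 with an antibody to H2AK119ub and 2 inputs, was sequenced; 1 peak list per antibody library was used, and the inputs were not analysed here. Per the submitters' processing notes, the build was hg38 and the tools included SICER 1.1, MACS2 2.1.0, Bowtie2 2.2.5, Picard, Trimmomatic 0.35 and SAMtools 1.3.1; the peak caller and its control are not given in the sources used here. Each peak has a score deposited by the authors, of unknown unit, from 2 to 1000. Starts were multiples of 200 bp and ends 1 bp below such a multiple, so ends were read as inclusive, and positions are printed from 1. Lists without counts give no depth, interval or test.

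Groups came from the sample titles. Gene spans came from a RefSeq table of GRCh38.p14, without exons; scaffold rows were left out. All 10 genes matched, and strand and starts came from the RefSeq promoter table. Covered length was computed with Python 3.11.15 and pandas 2.3.3, and the interval code was checked on simulated data. The 10 genes are all named; of 2 partner lists, the 2 largest decreases and increases of at least 1 kb. Members, lists and rules were chosen with earlier results of these data known.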

Additional observations from a re-analysis of the deposited data

How the results depend on the processing

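The summed difference of -11.4% was -17.8% with the gene spans alone and 0.162% (273.3 and 273.8 kb) with lists of equal covered length. That setting takes away the difference in total length between the lists, so a value near 0 there is not read as a reversal. It leaves out wild-type peaks only, and low-scored knockdown peaks stay, so no difference can fall under it. The summed difference lay between -15.3% and -7.43% under the other 6 settings. It lay between -13.2% and -9.43% when each gene was left out in turn, an alternative chosen after seeing the data. The count of genes shorter by 1.5 times, 0 of 10, was 3 with the spans alone (26.8% of all windows), 2 within 10 kb (RYBP and PCGF5; 25.5%), 1 in the upper 50% by score (PCGF5; 27.3%) and 3 at a ratio of 5 to 4 (38%). The count longer, also 0, was 1 with the spans alone (RNF2; 15.5%), 1 in the upper 50% by score (PCGF6; 15.1%), 1 with lists of equal length (PCGF6; 21.9%) and 1 at a ratio of 5 to 4 (RNF2; 18.9%). At 2 times both were 0. The share of wild-type peaks touching a knockdown peak, 81.1%, was 95.2% in the upper 50% by score, and the share of knockdown peaks, 84.2%, was 65.8% when an overlap of 50% in each direction was required. The cause was not tested. Of the single genes, BCOR kept its direction in all 8 settings, PCGF1 was lower or at 0, and the other 8 changed direction in 1 to 3 of them. Several of the settings left the covered bases of BCOR untouched, so its constancy is not read as greater robustness. No paired analysis was possible because each group has 1 library. Depth is unknown, so a peak in 1 list alone can lie just under the threshold of the other.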
